A study of Mus musculus with 2 samples.

Results

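The genes described here are 36 immediate early and heat shock genes of the mouse, taken by symbol from the 27998 genes of the deposited count tables. The set holds 11 AP-1 and early growth genes, 17 other early response genes and 8 heat shock genes. All 36 symbols were found in both tables. The counts are unique molecular identifiers (UMIs), each of which stands for 1 captured transcript. They come from single cells of the stromal vascular fraction, the cells that remain once fat cells have been removed from digested fat, here from the epididymal depot. There was 1 library from male C57BL/6J wild type mice on a normal chow diet (NCD) and 1 from such mice on a high fat diet (HFD), which was fed for 12 weeks. Both were 18 weeks old, and the labels do not say how many animals each library pooled. With 1 library per diet there is no replicate check, so no test was made and a difference cannot be told apart from one between 2 libraries. Intervals cover counting error only.

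Immediate early genes are switched on within minutes of a signal, before new protein is made, by transcription factors already present in the cell. Many encode transcription factors themselves, such as the Fos and Jun proteins that pair up as AP-1, and others encode the phosphatases and RNA-binding proteins that end the response. Heat shock genes encode chaperones, which fold and refold proteins, and heat shock factor 1 raises the inducible ones when proteins unfold. Both programmes are known to respond when tissue is cut and digested with enzymes, which was done for both libraries.

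The NCD library had 7365 cell barcodes with a median of 4230 UMIs, and the HFD library had 6840 with a median of 2020. After filters 7161 NCD and 6447 HFD cells were kept, and 64 barcodes occurred in both libraries. Cells were clustered without the member genes and named from markers. Markers of the named class stood above the library level for all or nearly all of each list: 15 of 15 for progenitors (the fibroblast-like cells that can form fat cells) in both libraries, and 13 of 14 in NCD and 14 of 14 in HFD for macrophages. The names were given from these same markers, so these counts do not check them. Free RNA means transcripts from broken cells that enter other droplets. It was estimated from markers of other classes, which stood higher in HFD. Empty droplets were not read, so doublets and mixed clusters cannot be told apart from it. The median of 15 stromal markers in macrophages stood at 4.38% of the library level in NCD and 28.3% in HFD, and that of 7 macrophage markers in progenitors at 2.93% and 25.4%. No marker of either list was at 0 in those classes. In endothelial cells the stromal markers stood at 7.06% and 66.8%. Summed mitochondrial UMIs made up 2.30% of the progenitor counts in NCD and 4.04% in HFD, and 2.96% and 3.90% of the macrophage counts. The part of depth, free RNA and mitochondrial share in the differences below was tested only where an alternative is named. Progenitors, macrophages and endothelial cells fell mostly into different clusters in the 2 libraries. In progenitors the largest clusters were 2.0 (24.4%) and 5 (21.6%) in NCD, and 0.0 (39.3%) and 0.1 (27.9%) in HFD. In macrophages they were 3 (53.3%) and 4.0 (27.5%) in NCD, and 1.0 (41.9%) and 1.1 (32.1%) in HFD. In endothelial cells the largest was 9.0 in NCD (69.0%) and 9.1 in HFD (66.7%). Among smaller classes, 1 cluster held most B cells of both libraries (57 of 65 and 73 of 125).

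The response elements of these genes can be read in the DNA before their start sites. RefSeq promoters of GRCm38.p6 were matched for 29 of the 36 members, and the 200 bases before the start were searched on both strands. TGACG, the core of the cyclic AMP response element (full form TGACGTCA, which contains it), occurred in 15.8% of all 27025 promoters in 4 of 8 matched AP-1 and early growth genes, in 5 of 15 other early response genes and in 2 of 6 heat shock genes. The full form occurred in 1.55% of all promoters and in 2 of 15 matched other early response genes, and in no matched AP-1 or heat shock gene. A heat shock element core, taken as GAANNTTC or TTCNNGAA, occurred in 10.4% of all promoters and in 5 of 6 matched heat shock genes (all but Dnajb1). In this window Hspb1 held it more than once, which 0.947% of all promoters did. A match describes letters and does not show binding. Shown are a promoter of each kind of early gene the near-identical promoters of the pair Hspa1a and Hspa1b, that of Hspb1 with its repeated core, and that of Hsph1, the heat shock member matched by TTCNNGAA. Fos lies at chr12:85473690-85473889 (plus strand), Dusp1 at chr17:26508473-26508672, Hspa1a at chr17:34972157-34972356, Hspa1b at chr17:34959239-34959438 and Hsph1 at chr5:149636337-149636536 (all minus strand), and Hspb1 at chr5:135887719-135887918 (plus strand). Capitals mark TGACG or TGACGTCA in Fos and Dusp1 and the heat shock core in the other four.
Fos: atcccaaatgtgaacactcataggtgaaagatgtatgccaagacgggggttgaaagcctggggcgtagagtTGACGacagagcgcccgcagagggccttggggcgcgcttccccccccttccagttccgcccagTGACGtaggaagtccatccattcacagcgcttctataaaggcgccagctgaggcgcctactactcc
Dusp1: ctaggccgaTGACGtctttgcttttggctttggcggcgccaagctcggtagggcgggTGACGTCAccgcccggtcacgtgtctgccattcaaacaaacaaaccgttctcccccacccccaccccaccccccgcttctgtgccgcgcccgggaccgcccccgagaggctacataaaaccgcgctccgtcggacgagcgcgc
Hspa1a: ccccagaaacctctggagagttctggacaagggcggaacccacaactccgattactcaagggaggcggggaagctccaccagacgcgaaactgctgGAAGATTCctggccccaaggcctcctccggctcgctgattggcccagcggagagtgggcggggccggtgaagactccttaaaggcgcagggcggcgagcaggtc
Hspa1b: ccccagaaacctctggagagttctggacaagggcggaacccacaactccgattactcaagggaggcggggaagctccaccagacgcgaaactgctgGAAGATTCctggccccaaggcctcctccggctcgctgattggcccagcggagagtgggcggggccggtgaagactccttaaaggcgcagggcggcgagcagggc
Hspb1: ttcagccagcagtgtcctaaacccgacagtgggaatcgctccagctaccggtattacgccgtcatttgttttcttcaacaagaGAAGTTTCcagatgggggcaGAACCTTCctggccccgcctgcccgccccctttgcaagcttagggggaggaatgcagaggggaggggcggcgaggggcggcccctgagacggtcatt
Hsph1: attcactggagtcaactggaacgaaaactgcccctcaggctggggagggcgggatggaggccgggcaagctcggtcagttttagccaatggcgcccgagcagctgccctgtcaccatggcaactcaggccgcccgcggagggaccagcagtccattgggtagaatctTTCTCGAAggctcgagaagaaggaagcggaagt

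The difference between the libraries in these 2 programmes was not the same in each cell class. In progenitors the AP-1 and early growth genes summed to 11730 CPM (counts per 1000000 UMIs of the class) in NCD and 12009 CPM in HFD, while the heat shock genes summed to 3370 and 2533 CPM. In macrophages both sums were lower in HFD, the AP-1 sum by more, with 10752 CPM (NCD) and 7422 CPM (HFD) beside heat shock sums of 2803 and 2580 CPM. Endothelial cells had lower sums of both in HFD, 10486 and 8743 CPM for AP-1 and 6307 and 3712 CPM for heat shock. Since a UMI counts a transcript once whatever its length, the sums can be set against each other. Progenitors held 3.48 AP-1 UMIs per heat shock UMI in NCD and 4.74 in HFD, and macrophages held 3.84 and 2.88. The macrophage order rests on Jund and Hspa8, which many cells hold without stress: without them the ratio was 9.14 in NCD and 9.22 in HFD, and that of progenitors was 5.26 and 8.43. The median log2 ratios of HFD over NCD in macrophages were −0.68 for AP-1 and −0.43 for heat shock genes. With free RNA subtracted they were −0.95 and −0.76, and in clusters with little free RNA −0.82 and −0.46.

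Among the smaller classes, mesothelial cells (the lining of the fat pad) paired AP-1 sums of 8353 CPM in NCD and 8601 CPM in HFD with heat shock sums of 5863 and 3505 CPM. Dendritic cells stood at 5015 and 4519 CPM for AP-1, T cells at 6105 and 5479 CPM and B cells at 3901 and 5249 CPM. In the cluster that held most B cells of both libraries the AP-1 sums were 3143 and 3610 CPM. A further B cell cluster, with 52 HFD and 8 NCD cells, held 8551 CPM in HFD. Stromal markers in B cells stood at 3.43% (NCD) and 23.2% (HFD) of the library level, and their part was not tested. In NCD, mural cells of the vessel wall (14295 CPM, 50 cells) and group 2 innate lymphoid cells (14036 CPM, 106 cells) held the most AP-1 transcripts, and the interval of neither excluded the other's value. B cells, at 3901 CPM, held the least. Mural cells, with 6596 CPM, and endothelial cells, with 6307 CPM, headed the heat shock order in NCD. In HFD the AP-1 order ran from progenitors through mast cells or basophils (10536 CPM) to dendritic cells, so that T, B and dendritic cells were low in both libraries. Free RNA in that mast cell or basophil class stood at 100.1% of the library level of stromal markers, and its part was not tested.

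**Figure D1:**
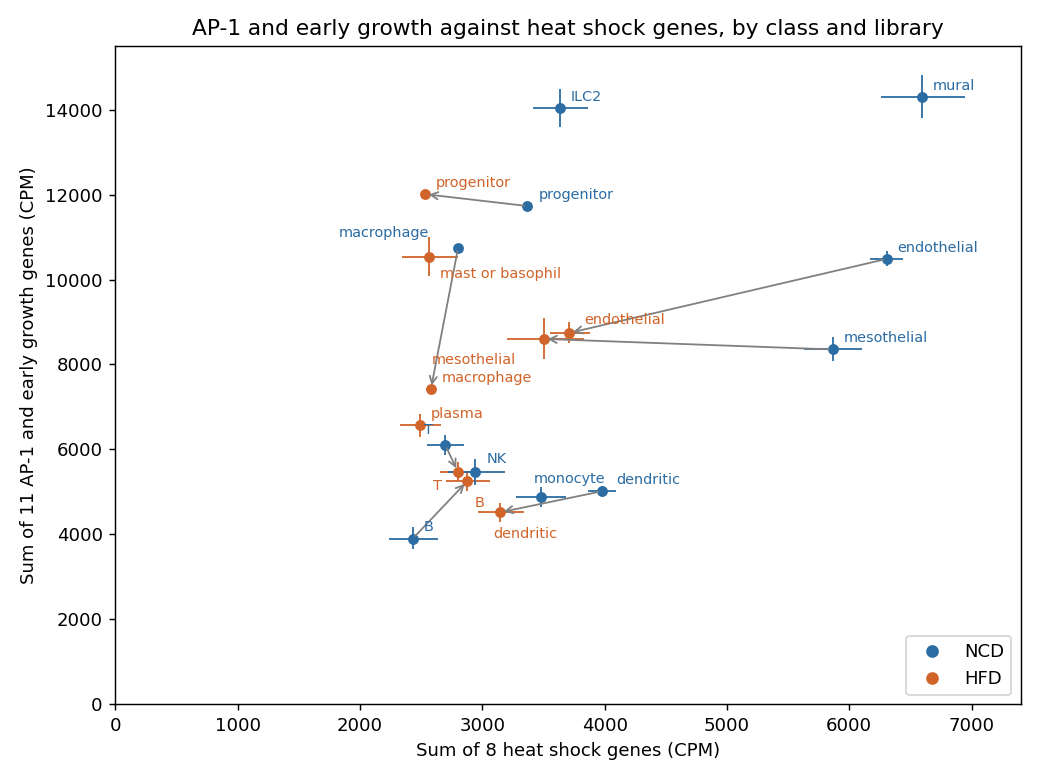
Summed CPM of the 11 AP-1 and early growth genes (vertical axis) against that of the 8 heat shock genes (horizontal axis), 1 dot per class and library with at least 50 cells. Bars are exact Poisson 95% intervals, and arrows join NCD to HFD; the progenitor arrow runs left from 3370 to 2533 CPM of heat shock genes, and the macrophage arrow runs down from 10752 to 7422 CPM of AP-1 genes.

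Of the Fos family, Fos, the AP-1 partner of the Jun proteins, was held at 2781 CPM in all NCD cells and 2957 CPM in all HFD cells. It was at 3035 and 3579 CPM in progenitors and 3110 and 2737 CPM in macrophages, a log2 ratio of HFD over NCD of 0.24 (95% interval 0.22 to 0.26) and −0.18 (−0.21 to −0.16). Fosb, a close relative, stood at 391 and 361 CPM over all cells and at 360 and 224 CPM in macrophages, a log2 ratio of −0.68. Fosl2, a slower member of the family, stood at 106 and 69.1 CPM over all cells, 102 and 85.2 CPM in progenitors and 81.9 and 53.9 CPM in macrophages. Fosl1, another late member, was rare, at 6.87 and 1.24 CPM, and came mostly from NCD progenitors (13.2 CPM, against 2.08 CPM in HFD). Over all cells the log2 ratio was thus 0.09 for Fos, −0.11 for Fosb and −0.62 for Fosl2.

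Of the Jun family, Jun went opposite ways in progenitors and macrophages. It stood at 1084 and 1148 CPM over all cells. It was at 1427 CPM in NCD progenitors and 1826 CPM in HFD progenitors (log2 ratio 0.36, 0.32 to 0.39), whereas macrophages held 1063 and 629 CPM (−0.76, −0.81 to −0.70). With free RNA subtracted the macrophage value was −1.33 and the progenitor value 0.52, so both were larger. Junb, a partner that restrains growth in many cells, was at 2515 and 2197 CPM over all cells, and at 7820 CPM in NCD group 2 innate lymphoid cells. It was at 2673 and 2660.3 CPM in progenitors and at 2337 and 1882 CPM in macrophages (−0.31). Jund, the steadily expressed partner, stood at 2035 and 1488 CPM over all cells, with 2312 and 1972 CPM in progenitors (−0.23) and 1839 and 1103 CPM in macrophages (−0.74). Atf3, which binds the same family of sites and is raised by stress, was one of the members with more in HFD, at 266 and 354 CPM over all cells, 263 and 364 CPM in progenitors and 315 and 400.3 CPM in macrophages. Its log2 ratios of 0.47 and 0.34 in these 2 classes did not reach 1.5-fold.

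The early growth genes encode zinc finger transcription factors. Egr1 was lower in HFD in progenitors, macrophages and endothelial cells by at least 1.5-fold, with 1398 and 928 CPM, 1558 and 359 CPM, and 1325 and 553 CPM. The log2 ratios were −0.59 (−0.63 to −0.55), −2.12 (−2.19 to −2.05) and −1.26 (−1.44 to −1.08). The progenitor value sat at the line of 1.5-fold. Across the alternatives it ran from −1.04 in cells of 1500 to 3000 UMIs to −0.40 in clusters with little free RNA. Over all cells Egr1 stood at 1240 and 596 CPM. Egr2, which takes part in macrophage differentiation, was at 54.6 and 39.1 CPM over all cells and at 84.8 and 34.3 CPM in macrophages (−1.31). Egr3 was at 0.955 and 0.564 CPM over all cells, too few UMIs to compare.

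The other early response genes were read in the same order. Ier2, Ier3 and Ier5 are short-lived products of early signalling. Ier2 stood at 912 and 607 CPM over all cells, at 1027 and 832 CPM in progenitors and at 916 and 415 CPM in macrophages. Ier3 was at 296 and 149 CPM over all cells, and macrophages held 661 CPM in NCD against 160 CPM in HFD (−2.05, −2.15 to −1.95), while progenitors held 143 and 144 CPM. Ier5, which acts on heat shock factor 1, was at 297 and 187 CPM over all cells and at 449 and 193 CPM in macrophages (−1.22). All 3 fell in macrophages by more than 1.5-fold and in progenitors none did.

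Btg1 and Btg2 restrain cell division and promote the decay of messenger RNA. Btg1 stood at 369 and 455 CPM over all cells and rose by more than 1.5-fold in progenitors (221 and 376 CPM, log2 ratio 0.77) and in macrophages (259.96 and 401 CPM, 0.63). Btg2 was at 557 and 495 CPM over all cells and 458 and 576 CPM in progenitors, and endothelial cells held 944 and 544 CPM (−0.79). Dusp1, a phosphatase that switches off stress kinases and whose promoter above holds the full TGACGTCA element, was at 1483 and 1528 CPM over all cells. Its macrophage levels were 2045 and 1944 CPM, a log2 ratio of −0.07 that crossed 0 under 3 alternatives. Dusp2, a phosphatase known from lymphocytes, was at 38.8 and 59.7 CPM over all cells, at 41.8 and 84.0 CPM in macrophages and at 1.86 and 21.9 CPM in progenitors. In HFD its highest levels were in B cells (126 CPM) and T cells (126 CPM), and the free RNA values of progenitors are those given above. The progenitor log2 ratio of Dusp2 was 3.56, against 3.60 with free RNA subtracted and 2.35 in clusters with little free RNA. Under each of these alternatives 16 other early response genes reached 10 CPM in progenitors, against 17 without them. Dusp2 had the lowest HFD level of these genes in progenitors. A ratio does not show how far a level falls on subtraction, and how much of the 21.9 CPM was free RNA was not tested.

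Zfp36 and Zfp36l1 bind AU-rich messenger RNA and speed its decay. Zfp36 stood at 690 and 498 CPM over all cells and at 915 and 555 CPM in macrophages (−0.72). Zfp36l1 was at 458 and 308 CPM over all cells and at 565 and 227 CPM in macrophages (−1.31). Both therefore fell in macrophages, while in progenitors their log2 ratios were −0.08 and −0.28.

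Nr4a1 and Nr4a2 are nuclear receptors that act without a known ligand in most settings. Nr4a1 was at 204 and 151 CPM over all cells and reached 956 CPM in NCD group 2 innate lymphoid cells. Nr4a2 was at 44.3 and 37.98 CPM over all cells and at 15.5 and 24.7 CPM in macrophages (0.67), a difference that came to 0.32 with doublets kept and 1.2 with cells thinned to equal depth. The Krüppel-like factors control quiescence and differentiation. Klf2 was at 1187 and 836 CPM over all cells, Klf4 at 668 and 521 CPM, and Klf6 at 503 and 395 CPM. In macrophages Klf2 was at 1192 and 665 CPM (−0.84) and Klf4 at 583 and 286 CPM (−1.03). In progenitors, the class with the highest Klf4 in both libraries, Klf4 stood at 922 and 830 CPM, and Klf2 there was at 1371 and 1059.7 CPM (−0.37).

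Nfkbia and Nfkbiz are fed back by NF-kappa B, and Socs3 by cytokine signalling. Nfkbia was at 769 and 570.3 CPM over all cells and 431 and 339 CPM in progenitors (−0.35), and reached 4099 CPM in NCD group 2 innate lymphoid cells. Nfkbiz stood at 263 and 134 CPM over all cells and at 463 and 140 CPM in macrophages (−1.72, −1.83 to −1.61), against 147 and 143 CPM in progenitors. Socs3 was at 344 and 287 CPM over all cells, at 415 and 445 CPM in progenitors and at 299.98 and 162 CPM in macrophages. Macrophages and progenitors thus held similar HFD levels of Nfkbiz although their NCD levels lay apart.

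The heat shock genes include steady and inducible chaperones. Hspa8, the steady Hsp70, was at 1815 and 1691 CPM over all cells. Its log2 ratio was −0.23 in progenitors (1578 and 1342 CPM) and 0.05 in macrophages (1828 and 1895 CPM), and the progenitor value was 0.15 in cells of 1500 to 3000 UMIs. Hsp90aa1, the inducible Hsp90, was at 497 and 325 CPM over all cells. It fell in progenitors (572 and 342 CPM, −0.74, −0.80 to −0.68) and in endothelial cells (579 and 293 CPM, −0.98), and stood at 413 and 286 CPM in macrophages (−0.53). Hsph1, which recharges Hsp70 with ATP, was at 38.4 and 23.9 CPM over all cells and fell in progenitors from 44.9 to 17.2 CPM (−1.39). In macrophages it was at 28.4 and 28.7 CPM.

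Dnaja1 and Dnajb1 are Hsp40 co-chaperones that hand clients to Hsp70. Dnaja1 was at 432 and 302 CPM over all cells, at 546 and 378 CPM in progenitors (−0.53) and at 269 and 215 CPM in macrophages (−0.33). In progenitors 6 of the 8 heat shock genes had lower values in HFD, and Dnajb1 and Hspa1a had higher ones. The median log2 ratio of all 8089 genes tested in progenitors was −0.22, so most genes had lower values in HFD too. Dnajb1 stood there at 79.6 CPM (NCD) and 116 CPM (HFD), a log2 ratio of 0.54 (0.41 to 0.67), and at 103 and 63.7 CPM in macrophages (−0.69, −0.87 to −0.51). Over all cells it was level, at 85.9 and 86.3 CPM. Hspb1, a small heat shock protein abundant in vessel and mesothelial cells, was at 350.1 and 171 CPM over all cells. It fell in endothelial cells from 2155 to 855 CPM (−1.33, −1.48 to −1.19) and in progenitors from 447 to 248 CPM (−0.85). In macrophages it was at 30.5 and 50.02 CPM (0.72), but −2.81 with free RNA subtracted and −0.38 in clusters with little free RNA.

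Hspa1a and Hspa1b, the inducible Hsp70 pair on chromosome 17, gave different values although the promoters printed above share 199 of 200 bases. The 2 transcripts share sequence in long runs (49.3% of the 90-base windows of Hspa1a) but none in the last 600 bases, near where these tags are read. Over all cells Hspa1a was at 73.7 and 51.2 CPM, and Hspa1b at 24.6 and 11.1 CPM. In progenitors Hspa1a stood at 63.0 and 69.5 CPM (0.14, −0.01 to 0.30), while Hspa1b fell from 39.5 to 19.6 CPM (−1.01, −1.27 to −0.75). In macrophages both fell, Hspa1a from 118.5 to 39.2 CPM (−1.60) and Hspa1b from 13.2 to 3.04 CPM (−2.12). The UMIs of Hspa1a per UMI of Hspa1b came to 1.59 (1.44 to 1.77) in NCD progenitors and 3.54 (2.95 to 4.27) in HFD progenitors. In macrophages they came to 8.99 (7.40 to 11.02) and 12.9 (7.98 to 22.1). The progenitor values lay below those of macrophages in both libraries, and their intervals did not overlap. How the authors' counting treated reads that fit both genes is not given in the sources used here, so the split between the pair is uncertain.

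**Figure D2:**
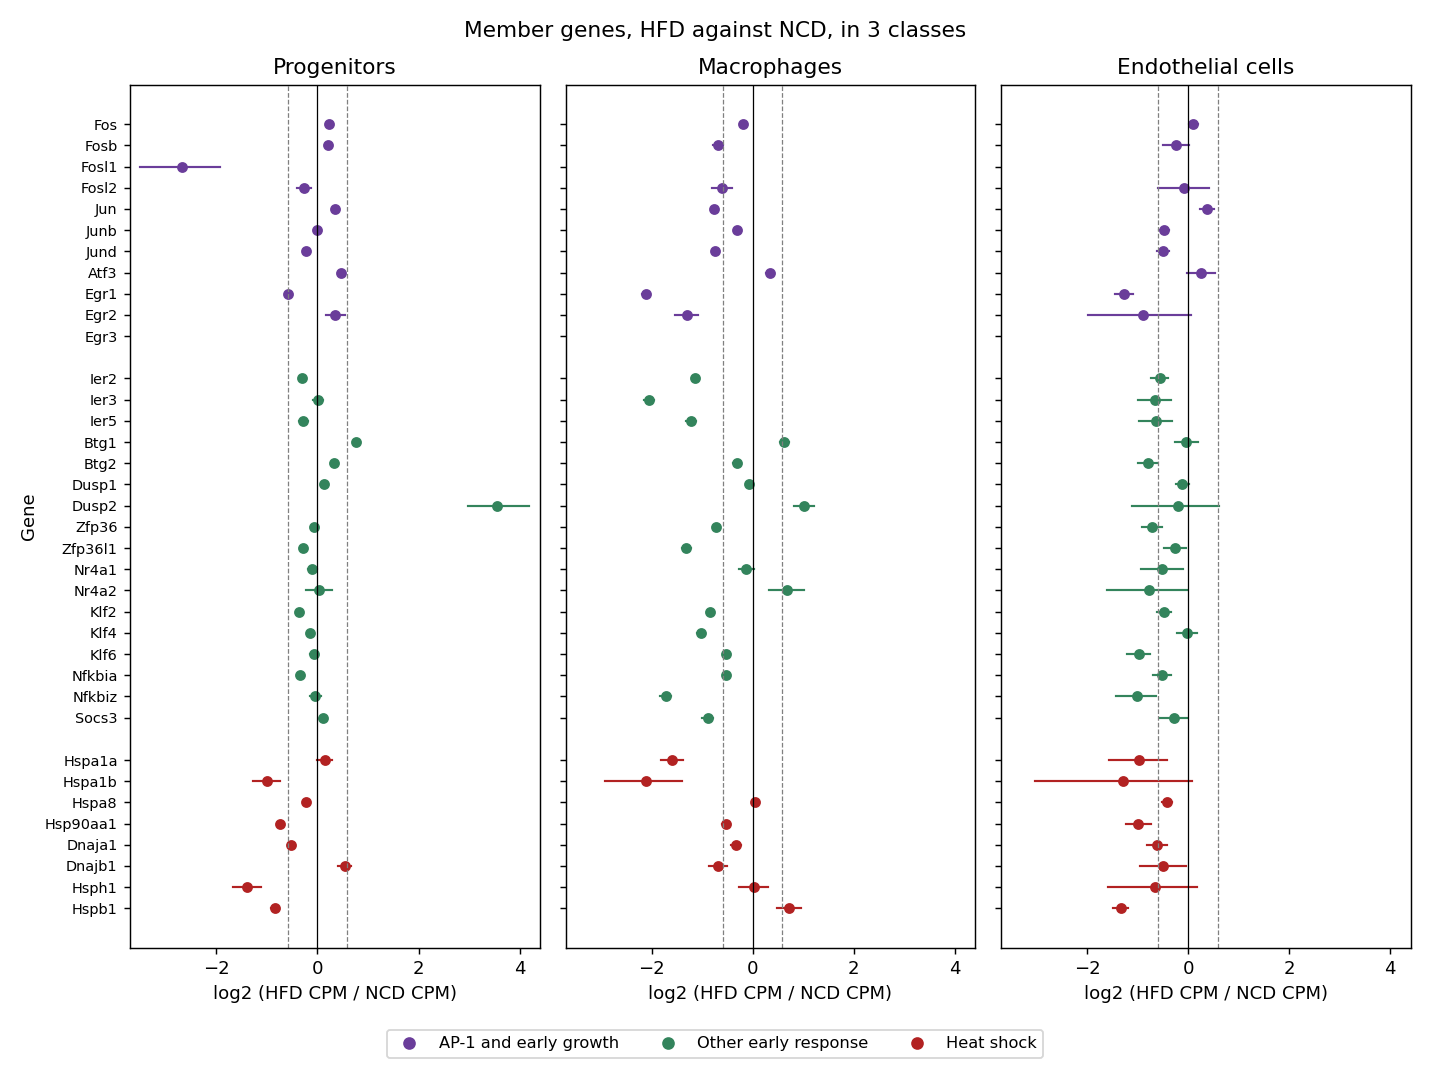
Log2 ratio of HFD to NCD levels (horizontal axis) of each member with at least 10 CPM in either library, in 3 classes. Dots are ratios of summed counts, lines are exact 95% counting intervals and dashed lines mark 1.5-fold; Egr1 lies at −2.12 in macrophages and −0.59 in progenitors, and Hspb1 at −1.33 in endothelial cells.

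More of the members were lower in HFD in macrophages than in progenitors. Among the 34 members with at least 10 CPM in macrophages, 18 were at least 1.5-fold lower and 4 higher, where 24.2% of all 7448 genes tested were lower and 14.7% higher. By list, 6 of 9 AP-1 and early growth genes, 9 of 17 other early response genes and 3 of 8 heat shock genes were lower there, with median log2 ratios of −0.68, −0.72 and −0.43 beside −0.11 for all genes. The 4 higher members were Btg1, Dusp2, Nr4a2 and Hspb1, and only 1 was left under each of 4 alternatives (a stricter cell filter, doublets kept, free RNA subtracted and cells classed by their own marker score). In progenitors 6 of 35 members were lower and 2 higher, beside 15.6% and 8.18% of all 8089 genes. The share of members lower was thus near that of all genes. The lower ones were Fosl1, Egr1, Hspa1b, Hsp90aa1, Hsph1 and Hspb1, so 4 of the 8 heat shock genes were among them. With a minimum of 50 CPM, 3 of 29 members were lower and the heat shock median was −0.38. The list medians were 0.10, −0.08 and −0.64 beside −0.22 for all genes. Of the members called in these classes, all 18 and 6 lower ones and both higher ones in progenitors kept their direction under each alternative run, and Hspb1 in macrophages did not.

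In endothelial cells 15 of 34 members were lower and 0 higher, beside 24.8% and 15.7% of 8649 genes. These included 6 of the 8 heat shock genes, 7 of the 17 other early response genes (among them Klf6 at 705 and 358 CPM and Nfkbiz at 243 and 120 CPM), and Egr1 and Egr2 among 9 AP-1 and early growth genes. Zfp36 fell there from 726 to 444 CPM, Ier3 from 283 to 180.1 CPM and Nr4a2 from 55.8 to 32.7 CPM. Of the chaperones, Dnaja1 fell from 708 to 462 CPM and Hspa1a from 118 to 60.02 CPM, while Dnajb1 (138 and 98.2 CPM) and Hspa8 (2545 and 1908 CPM) did not reach 1.5-fold. Neither did Junb (2979 and 2143 CPM), Jund (1966 and 1389.6 CPM), Fosb (378 and 322 CPM), Atf3 (244 and 291 CPM) or Jun, which was at 978 and 1270 CPM (0.38). The list medians were −0.23, −0.52 and −0.82 beside −0.13 for all genes. In the whole class stromal markers stood at 7.06% (NCD) and 66.8% (HFD) of the library level, and their part in these values was not tested. Cluster 9.0, with 238 NCD and 48 HFD cells and little free RNA in both, held heat shock sums of 7999 and 5311 CPM and Hspb1 levels of 3041 and 1521 CPM. Its AP-1 sums were 10297 and 7620 CPM, with Egr1 at 1122 and 507 CPM and Jun at 1016 and 1175 CPM. Over all kept cells 10 of 34 members were lower and 1 higher, beside 16.9% and 5.96% of 8158 genes, with list medians of −0.19, −0.43 and −0.57 beside −0.20. For the smaller classes, the heat shock medians were −0.89 in mesothelial cells, −0.32 in dendritic cells, −0.15 in T cells and 0.28 in B cells, and the AP-1 medians were 0.01, 0.03, −0.69 and 0.50.

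The share of cells with at least 1 UMI was read after every cell had been thinned to 1500 UMIs, which left out 340 HFD progenitors and 218 HFD macrophages. In macrophages the share with Egr1 was 84.4% (82.8 to 85.9) in NCD and 37.0% (34.7 to 39.4) in HFD, and in progenitors it was 81.4% (80.1 to 82.8) and 68.9% (67.2 to 70.7). Unthinned, the macrophage shares were 94.4% and 49.8%, and the progenitor shares 95.5% and 77.1%. No class is known to lack Egr1, and the lowest shares were 12.0% in NCD monocytes and 9.38% in HFD dendritic cells. Fos was found in 94.97% and 94.3% of macrophages and in 90.7% and 96.8% of progenitors. For Jun the shares were 71.7% and 55.4% of macrophages and 74.5% and 86.4% of progenitors, opposite orders in the 2 classes as in the CPM. Ier3 was found in 56.5% and 20.4% of macrophages and Nfkbiz in 47.97% and 16.4%. The unthinned shares of macrophages were 98.8% and 97.6% for Fos, 89.5% and 70.6% for Jun, 79.6% and 30% for Ier3 and 74.6% and 26.3% for Nfkbiz.

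Hspa1a and Dnajb1 were found in fewer macrophages than any of these genes in the same library. Hspa1a was found in 15.5% (14.0 to 17.1) of NCD macrophages and 6.13% (5.04 to 7.38) of HFD macrophages, and in 8.04% and 10.1% of progenitors, beside 3.45% and 3.93% of T cells. Its lowest shares were 0% in NCD B cells and 0% in HFD dendritic cells (1.54% and 5.71% unthinned). The progenitor order of Hspa1a changed at another number of UMIs, and is not read as a difference. Dnajb1 was found in 14.6% and 9.58% of macrophages and in 10.8% and 14.4% of progenitors, beside 6.90% and 6.74% of T cells. Its lowest shares were 5.29% in NCD dendritic cells and 4.26% in HFD mesothelial cells (27.1% and 11.3% unthinned). Hsp90aa1 was found more widely, with lowest shares of 27.6% in NCD T cells and 29.7% in HFD dendritic cells (60.9% and 57.1% unthinned). Hspa8 was found in 90.6% and 92.1% of macrophages and in 81.9% and 83.8% of progenitors. Hspb1 was found in 86.4% (82.3 to 89.8) of NCD and 63.8% (56.9 to 70.3) of HFD endothelial cells, and in 4.43% and 9.58% of macrophages beside 1.18% and 4.69% of dendritic cells. Unthinned, Hspa1a was found in 30.6% and 10.2% of macrophages, Dnajb1 in 30.1% and 16.4%, and Hspb1 in 94.2% and 73.2% of endothelial cells. Median depths before thinning were 3730 and 2099 UMIs in macrophages, 4581 and 1975 in progenitors, 3518 and 2045 in T cells and 6875 and 4212 in dendritic cells.

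**Figure D3:**
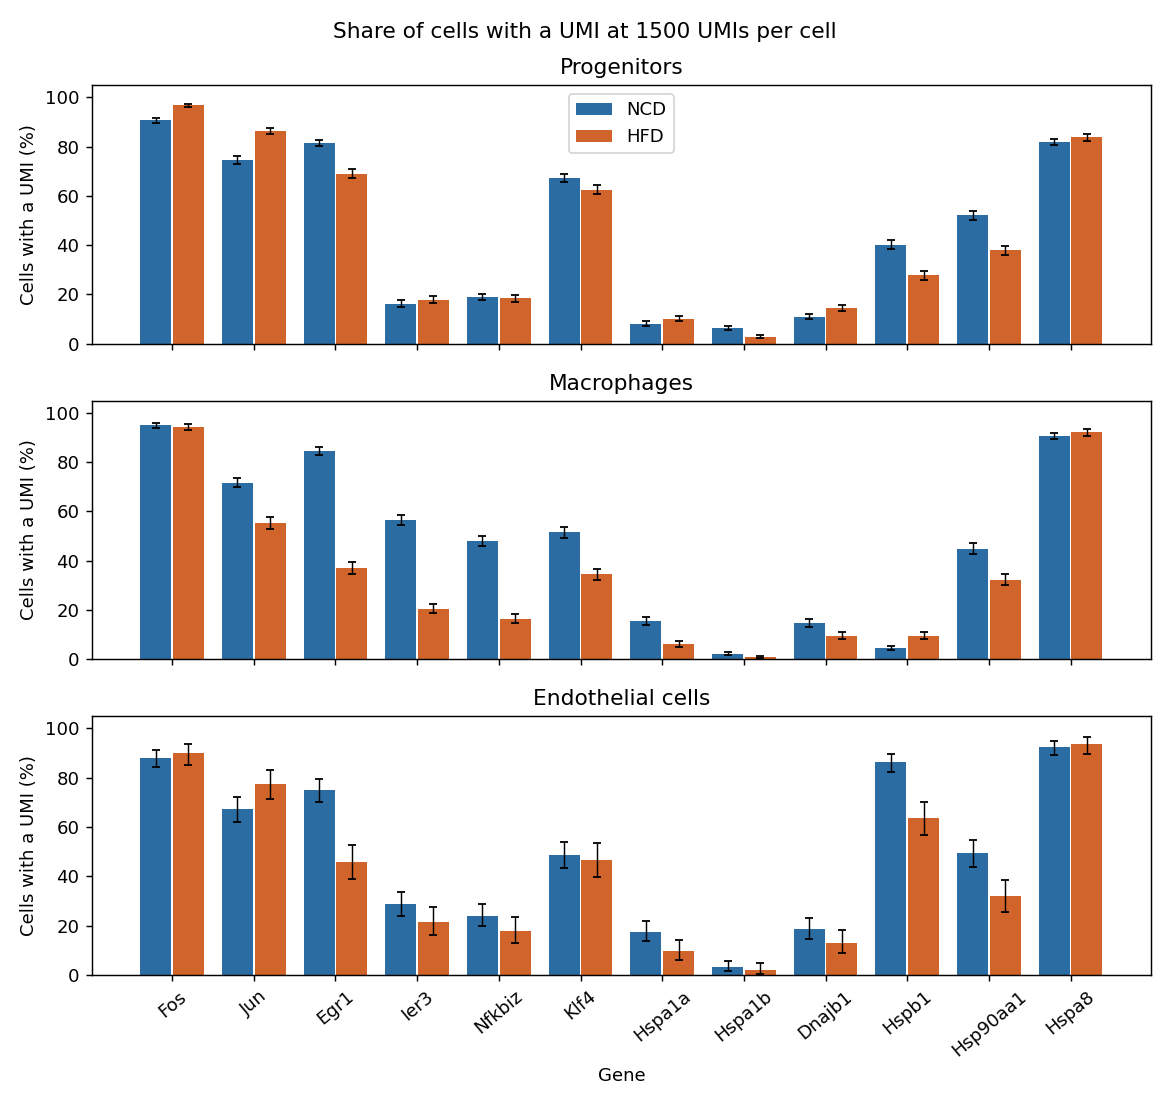
Share of cells with at least 1 UMI (vertical axis, %) of 12 members in 3 classes, every cell thinned to 1500 UMIs. Bars are NCD and HFD and whiskers are exact Clopper-Pearson 95% intervals; Egr1 drops from 84.4% to 37.0% of macrophages, while Fos stays at 94.97% and 94.3%.

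Within single cells the lower heat shock level of HFD progenitors showed as a shorter upper tail, and that of endothelial cells as a shift of the whole distribution. At 1500 UMIs the median progenitor held 4 heat shock UMIs in both libraries, but 9.57% of NCD progenitors and 1.78% of HFD progenitors held 10 or more. Among endothelial cells the lower quartile, median and upper quartile were 6, 9 and 14 in NCD and 3, 5 and 7 in HFD, and 45.5% and 11.4% held 10 or more. Stromal markers in endothelial cells stood at 7.06% of the library level in NCD and 66.8% in HFD. Their part in this shift was not tested. AP-1 and early growth UMIs shifted as a whole in macrophages, from a median of 16 to 11, and 83.3% and 58.7% of macrophages held 10 or more. In progenitors that median was 17 in both. Across progenitors and across macrophages the 2 sums were nearly unrelated. Pearson's r was 0.03 and 0.01 over 3272 NCD and 2747 HFD progenitors and 0.03 and −0.03 over 2166 and 1712 macrophages. Some smaller classes had larger values. They were 0.34 in 100 NCD monocytes, 0.28 in 67 HFD mast cells or basophils, 0.23 in 64 HFD dendritic cells and −0.16 in 108 HFD B cells. These are sparse counts of cells from the same library, and are given as a description.

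**Figure D4:**
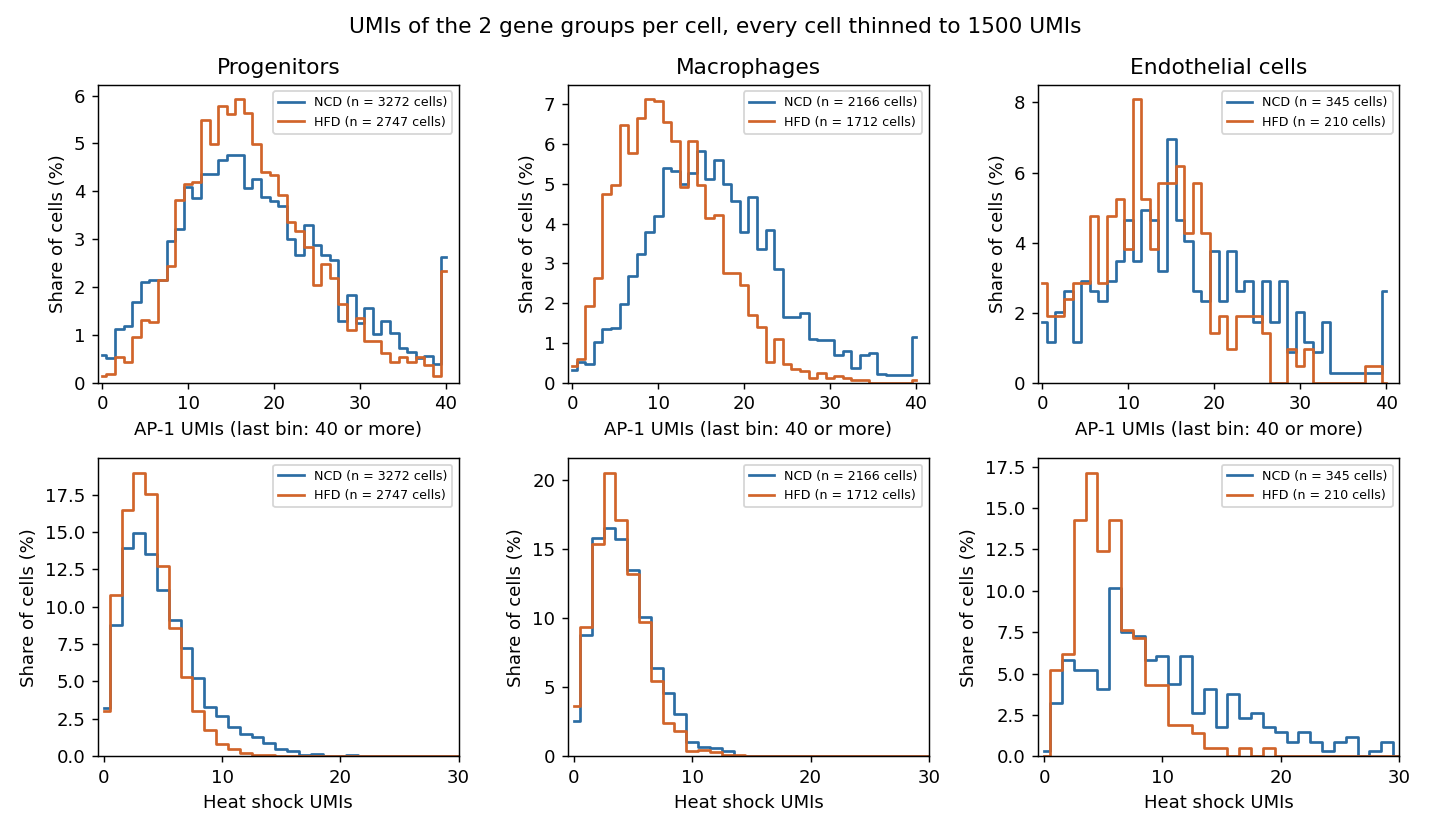
Share of cells (vertical axis, %) by the number of AP-1 and early growth UMIs (top) and heat shock UMIs (bottom) per cell thinned to 1500 UMIs, in 3 classes; the last top bin holds 40 or more, and the bottom axis leaves out a few NCD endothelial cells of up to 44 heat shock UMIs. The HFD curve of macrophages lies to the left in the top row (median 11 against 16), and so does that of endothelial cells in the bottom row (median 5 against 9).

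In NCD progenitors the heat shock sum was highest in the deepest cells, without a steady rise between. NCD progenitors of 1400 to 2000 UMIs held 2700 CPM of heat shock genes (176 cells). The next bins held 3010 and 2938 CPM, and cells above 5000 UMIs held 3679 CPM. HFD progenitors of the same 4 depths held 2589, 2522, 2442 and 2556 CPM. The difference in the sum was thus smaller among the shallow progenitors than among the deep ones. The sum follows Hspa8, its most abundant gene, and in progenitors of 1500 to 3000 UMIs, where Hspa8 was at 0.15, the log2 ratios were −0.81 for Hsp90aa1, −1.42 for Hsph1 and −1.56 for Hspa1b, with a list median of −0.48. The AP-1 median of progenitors was −0.17 in these cells. NCD macrophages showed no such rise over the shallowest cells. Their heat shock sums were 2893 CPM at 1400 to 2000 UMIs, 2649 and 2777 CPM in the next bins and 2895 CPM above 5000. The AP-1 sums of macrophages lay apart at each depth, with 11749 and 7728 CPM at 1400 to 2000 UMIs and 9060 and 6869 CPM above 5000.

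In progenitors the AP-1 sum differed more between clusters than between the libraries. Among NCD progenitors the AP-1 sum ran from 7267 CPM in cluster 5, whose leading genes included Pi16, Cd55 and Sema3c, to 14065 CPM in cluster 2.0, led by Inmt and Sult1e1. In HFD it ran from 8792 CPM in cluster 11, which Pi16 and Dmkn led, to 15619 CPM in cluster 10, led by Postn and Col3a1. The clusters with Pi16 among their leading genes were thus the lowest among progenitors in each library. Cluster 5 was shared by 706 NCD and 62 HFD cells, with AP-1 sums of 7267 and 9117 CPM and heat shock sums of 2518 and 2106 CPM. Its Klf4 levels of 1266 and 1359 CPM were above those of the whole class, so Klf4 did not follow the AP-1 genes there. Among macrophages the AP-1 sum spanned 7000 to 12327 CPM over 4 NCD clusters and 5683 to 9234 CPM over 4 HFD clusters. The NCD cluster at 7000 CPM had 84 cells and was led by genes of dividing cells, such as Stmn1 and Birc5. The other NCD macrophage clusters spanned 10246 to 12327 CPM. Over all 4 clusters, the span in each library was wider than the difference between the class sums of 10752 and 7422 CPM. The 2 NCD endothelial clusters were at 10297 and 10799 CPM. The HFD cluster at 5683 CPM was led by Mmp12, Spp1 and Gpnmb. That at 9234 CPM, cluster 19 with 115 cells, was led by Ccl8, Fcna and Cd209f. NCD cluster 3, at 10246 CPM, was led by Cd209f, Retnla and Lyve1. Clusters 19 (HFD) and 3 (NCD) held 1147 and 1076 CPM of Jun and 669 and 708 CPM of Klf4. Their Egr1 levels were 588 and 1704 CPM. Cluster 19 was not among the clusters with little free RNA, and the part of cluster make-up in the class values was not tested.

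**Figure D5:**
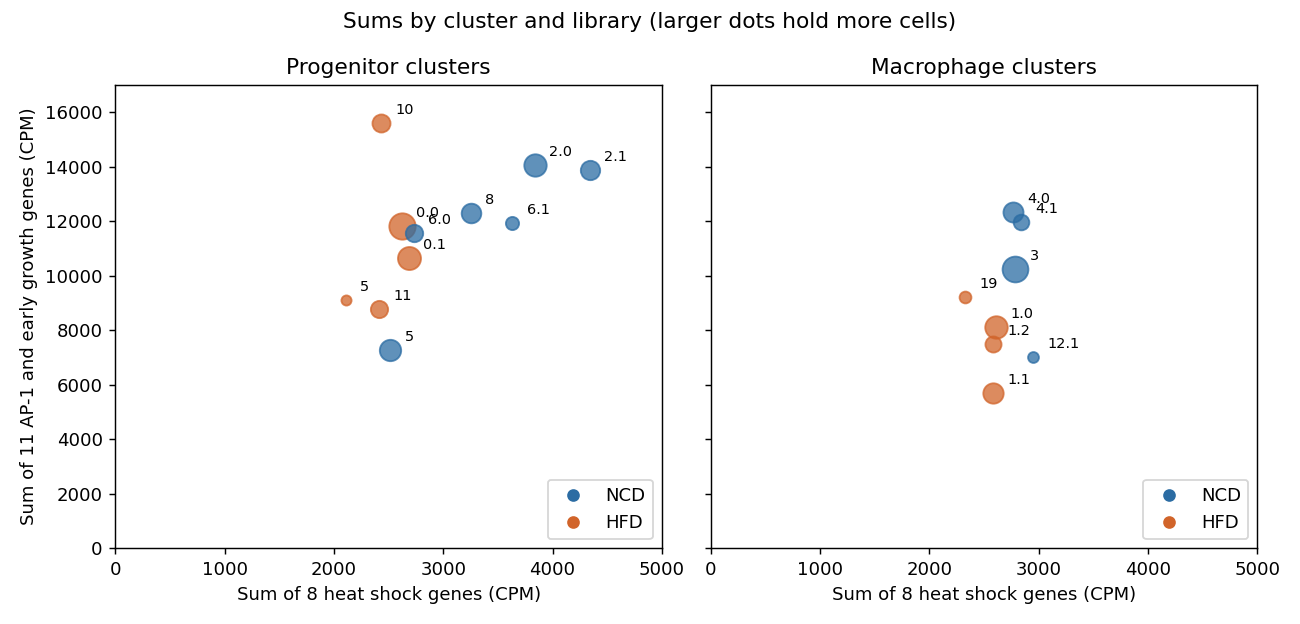
Summed CPM of AP-1 and early growth genes (vertical axis) against heat shock genes (horizontal axis) in each progenitor and macrophage cluster with at least 50 cells of a library. Larger dots hold more cells; NCD progenitor clusters spread from 2518 to 4341 CPM of heat shock genes, whereas HFD progenitor clusters stay between 2106 and 2686 CPM.

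Genes of the same pathways outside the 36 were read from 2 further lists. Of other immediate early genes, 5 of 34 in progenitors were at least 1.5-fold lower and 6 higher (median log2 ratio 0.05), beside 15.6% and 8.18% of all genes. In macrophages 13 of 33 were lower and 6 higher (−0.30), beside 24.2% and 14.7%. Sik1, a kinase induced by cyclic AMP, rose in both classes, from 24.9 to 93.4 CPM in progenitors and from 12.5 to 84.8 CPM in macrophages. Mcl1, which holds off cell death, fell in macrophages from 481 to 177 CPM, and Trib1 from 86.1 to 35.99 CPM. In progenitors Klf9 fell from 668 to 377 CPM and Phlda1 from 367 to 211 CPM, and Errfi1 was at 539 and 346 CPM. Sgk1, a kinase raised by steroid hormones, rose in macrophages from 36.6 to 104.8 CPM. Cyr61, known from stromal cells, rose in macrophages from 14.4 to 59.8 CPM, where the free RNA markers also rose as given above.

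Of other chaperones and heat shock factor genes, 8 of 41 in progenitors were at least 1.5-fold lower and 2 higher (median −0.38), beside the same 15.6% and 8.18% of all genes, and 5 of 40 in macrophages were lower and 4 higher (0.05), beside 24.2% and 14.7%. The share lower was thus near that of all genes in progenitors and below it in macrophages. Hsp90ab1, the steady Hsp90, stood at 1153 and 745 CPM in progenitors (−0.63), Stip1, which bridges Hsp70 and Hsp90, at 62.1 and 36.7 CPM, and Hspb8 at 136 and 81.3 CPM. Dnajc3, a chaperone of the endoplasmic reticulum, fell in both classes, from 319 to 183 CPM in progenitors and from 147 to 89.2 CPM in macrophages. Stip1 and Fkbp4, another partner of Hsp90, were at 52.2 and 34.1 CPM and at 86.9 and 62.5 CPM in macrophages. Hmox1, which breaks down heme, went opposite ways, with 29.1 and 62.3 CPM in progenitors and 385 and 234 CPM in macrophages. The macrophage free RNA markers in progenitors also rose, as given above, and their part in the progenitor value was not tested. Serpinh1, the collagen chaperone of stromal cells, rose in macrophages from 34.4 to 227 CPM beside the rise of the stromal markers there.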

How the data were processed

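The authors deposited UMI counts per gene and cell barcode. The tools were Cell Ranger and Seurat and the build was mm10, per the submitters' processing notes; versions are not given in the sources used here. Members and gene lists were chosen with earlier results of these data known, and the details of the rule that names clusters were revised after the first clusters had been seen, because it had given some progenitor and endothelial clusters the names of other types.

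Kept cells had 500 or more genes, 1000 or more UMIs and a mitochondrial share of up to 20%. Scrublet in scanpy 1.11.5 called 183 NCD doublets. Its own threshold called 0 in HFD, so the 5% with the highest scores (339) were left out. Leiden clustering (igraph 0.11.9) used 2000 variable genes without the 36 members and the 2 further lists of stress genes, and gave 51 clusters. A name needed at least 3 markers, and at least 40% of a class's markers, at 1.5-fold or more and in at least 10% of cells; a cluster whose leading 10 genes held more markers of another class stayed unnamed (662 NCD and 479 HFD cells). A class name thus stands for a resemblance in markers.

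Counts were summed per class and library and scaled to counts per 1000000 (CPM). Comparisons were limited to classes of 50 or more cells per library, and single genes to those of 100 or more. Some values fell under these limits. They are the shares given beside others for smaller classes, such as T cells (87 in NCD), and the values of clusters 5 (62 HFD cells) and 9.0 (48 HFD cells). A gene was called at 1.5-fold among genes with at least 10 CPM in either library. Ratios have exact conditional binomial, sums exact Poisson and shares exact Clopper-Pearson 95% intervals, which cover counting error only. The named genes were all members over all cells and, within a class, up to 6 members a list (others with few UMIs, such as Hspa1b and Hsph1, and the members lost or opposite in a class, were chosen after their values were seen), and up to 5 genes of each further list, with at least 50 CPM and the largest ratios. A gene that this rule names is not reported here. Free RNA was estimated from markers of other classes. Gene positions came from GENCODE vM21 on GRCm38, where 10 members overlap a gene on the other strand and 3 one on the same strand. Interval code was tested on simulated counts. Scripts ran in Python 3.11.15.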

Additional observations from a re-analysis of the deposited data

Results flagged for a closer look

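Hspb1, a small heat shock protein, stood apart because it moved by more than 1.5-fold in opposite directions in 2 classes. Its log2 ratio of HFD over NCD was −0.85 in progenitors and 0.72 in macrophages. The difference between the classes was not tested, since there was 1 library per diet. Macrophages held 30.5 and 50.02 CPM, and their stromal free RNA markers stood at 4.38% of the library level in NCD and 28.3% in HFD. With free RNA subtracted the macrophage value was −2.81, and in clusters with little free RNA it was −0.38.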

How the results depend on the processing

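No paired analysis was possible because each diet had 1 library. Median log2 ratios are given for AP-1 and early growth, other early response and heat shock genes. Median-of-ratios scaling moved all values up by 0.20 over all cells, 0.19 in progenitors and 0.12 in macrophages. It turned the AP-1 median over all cells to 0.0096 and the other early response median of progenitors to 0.11. It gave −0.23 and −0.37 for other early response and heat shock genes over all cells, 0.29 and −0.45 for AP-1 and heat shock genes in progenitors, −0.57, −0.60 and −0.31 in macrophages, and 4 higher members in progenitors. Cells of 1500 to 3000 UMIs, chosen after seeing the data, turned the AP-1 median of progenitors to −0.17 and gave −0.17 and −0.48 for the other 2 lists there, −0.82 and −0.76 for AP-1 and heat shock genes in macrophages and −0.26 for AP-1 genes over all cells. Clusters with little free RNA, also chosen after seeing the data, gave AP-1 medians of 0.21 in progenitors and −0.82 in macrophages. Subtraction gave 0.19, −0.95 and, for heat shock genes in macrophages, −0.76. Over all cells the stricter filter gave −0.21 and −0.34 for the first 2 lists, no CPM minimum −0.45 for AP-1, and thinning and equal cell weights −0.47 and −0.47 for other early response genes. In progenitors the AP-1 median was 0.060 with doublets kept, 0.043 with thinning, 0.049 with equal weights and 0.024 with no minimum, and the heat shock median was −0.38 at 50 CPM. In macrophages the AP-1 median was −0.79 with doublets kept, the other early response median −0.78 at 50 CPM and the heat shock median −0.64 with thinning. At 50 CPM 3 members were lower and 1 higher in progenitors. At 2-fold 3 were lower and 1 higher there, and 10 lower and 1 higher in macrophages. Higher members in macrophages numbered 1 with the stricter filter, doublets kept, subtraction or marker scores. AP-1 UMIs per heat shock UMI without Jund and Hspa8 were 5.26 and 8.43 in progenitors and 9.14 and 9.22 in macrophages. The causes were not tested. The other 110 values moved by less than their counting interval or, for counts, stayed within 1.5 times. Of 12 pairs of shares, 11 kept their order at 1000 and 2000 UMIs.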
